A study of Danio rerio with 6 samples.

Results

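The expression of 10 Notch pathway genes was followed in regenerating zebrafish caudal fins that had received Galloflavin, an inhibitor of lactate dehydrogenase, or its solvent. They were chosen by symbol and comprise 4 receptor genes (notch1a, notch1b, notch2 and notch3), 3 Jagged ligand genes (jag1a, jag1b and jag2b), lfng, which modifies the receptors, and the hairy-related repressor genes her6 and her9. Each symbol matched 1 of the 19822 identifiers of the deposited table, so that 10 of 10 genes were found. All fish were adult wild-type AB animals of 3 to 12 months, of both sexes, which regenerated at 33 °C after amputation and were injected intraperitoneally with Galloflavin at 0.12 mg per g in DMSO or with DMSO alone. RNA was taken 24 h after amputation from the regenerate with 1 adjoining ray segment, and each of the 3 DMSO and 3 Galloflavin libraries was a pool of 10 fins. The labels mark 1 DMSO and 1 Galloflavin pool each as replicate B1, B2 and B3, and this mark was read here as the batch. Amputation and injection were common to both groups, and no uninjured fin was compared here.

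Notch receptors are membrane proteins that are activated by ligands of the Jagged and Delta families on a neighbouring cell. Binding is followed by cleavage, first outside the membrane by an Adam protease and then inside it by gamma-secretase, and the freed intracellular part enters the nucleus and joins the DNA-binding protein Rbpj to switch on hairy-related (her) and hey genes. In the zebrafish fin, Notch signalling is known to be required for outgrowth of the regenerate and to keep blastema cells dividing and undifferentiated. RNA levels measure the components and targets of the pathway and not its cleavage step.

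Between 17712157 and 29596335 reads per library fell in the listed genes, fewest in both B3 libraries. Values are normalised counts, read counts divided by a factor for each library, on which 1 read was worth 0.0338 to 0.0543. The least covered of the 10 genes in any library was notch1b in Galloflavin B3 with 68 reads (exact Poisson 95% interval 52.8 to 86.2, counting error only), and the highest count was 9243 reads of notch3 in Galloflavin B1. No transcript lengths were used, so levels are compared between libraries and not between genes. Markers of basal epidermis (tp63, 442 in DMSO B1), fin mesenchyme (pdgfra, 94.8), osteoblasts (sp7, 10.5), endothelium (kdrl, 39.7) and macrophages (mpeg1.1, 52.9) were all detected, as a caudal fin would hold.

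**Figure D1:**
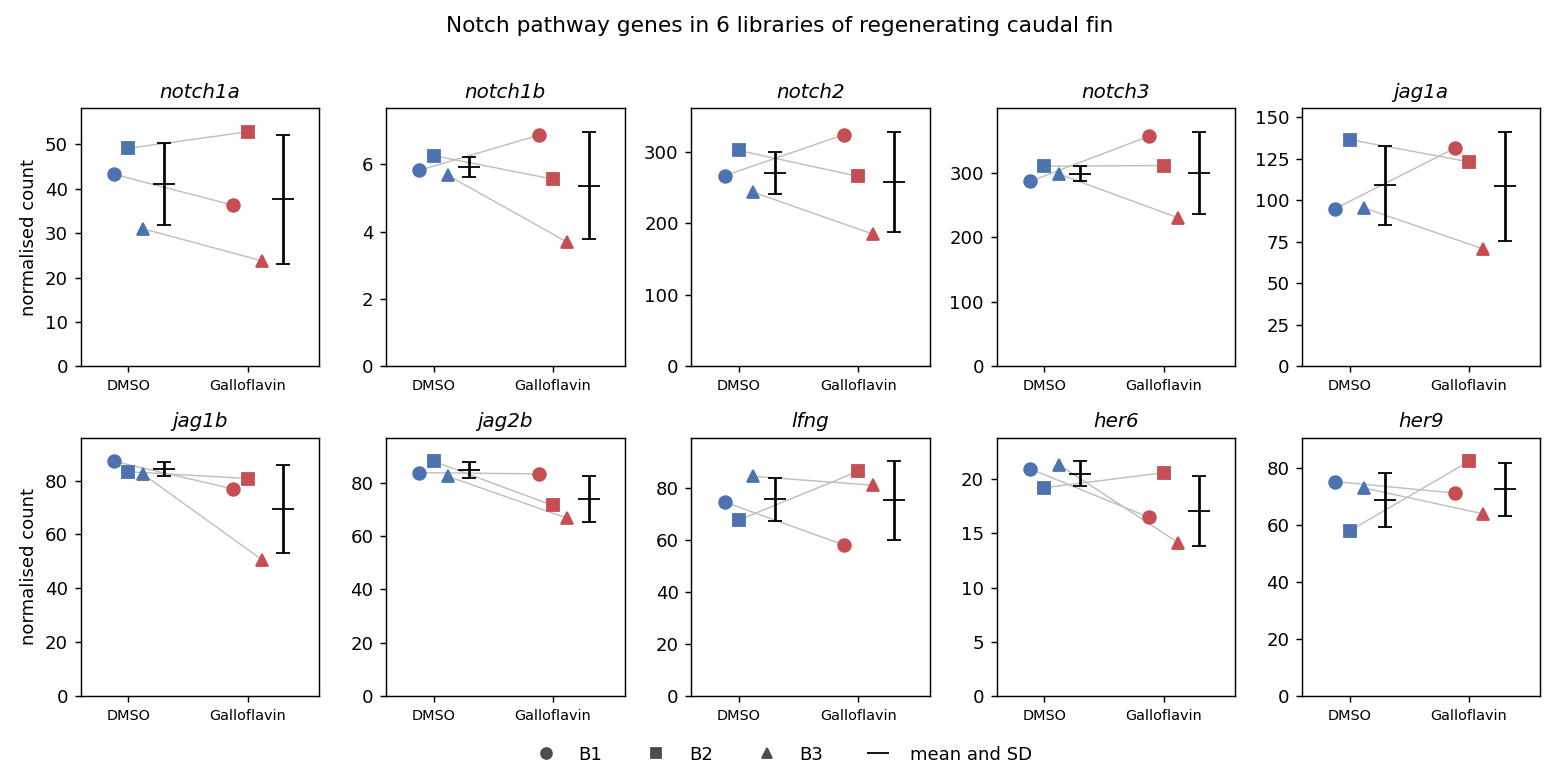
Normalised counts of the 10 genes (vertical axes, starting at 0) in the 3 DMSO and 3 Galloflavin libraries. Each point is 1 library, its shape gives the batch, grey lines join the libraries of a batch, and the black bars are the mean and SD of 3 libraries. For 8 of the 10 genes the lowest point is Galloflavin B3, and the groups are apart for jag1b alone.

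Among the receptors, notch1a (ENSDARG00000103554) had normalised counts of 43.3 in DMSO B1, 49.1 in DMSO B2 and 31.0 in DMSO B3, and this batch order is kept for all values that follow. The Galloflavin libraries of the same batches had 36.3, 52.8 and 23.8. The groups overlapped, and the B3 library was the lowest of its group in both, 27.4 on average against 39.8 in B1 and 51.0 in B2. With DMSO the mean was 41.1 ± 9.24 (SD, n = 3) and with Galloflavin 37.6 ± 14.6. The second zebrafish copy of this receptor, notch1b (ENSDARG00000052094), had 5.83, 6.26 and 5.67 with DMSO and 6.87, 5.56 and 3.69 with Galloflavin. Its DMSO libraries lay close together, and the Galloflavin libraries lay on both sides of them.

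The receptor gene notch2 (ENSDARG00000043130) was at 267, 302 and 244 normalised counts with DMSO and at 324, 266 and 185 with Galloflavin. Galloflavin B1 held the highest and Galloflavin B3 the lowest of the 6 values. The same order of extremes was found for notch3 (ENSDARG00000052139), a receptor best known from smooth muscle and pericytes of vessels in mammals, with 286, 310 and 298 in the DMSO libraries and 357, 311 and 230 in the Galloflavin libraries. Means of notch3 were nearly equal, at 298 ± 11.8 and 299 ± 64.0 (SD, n = 3), while the Galloflavin libraries were spread more widely. Means of notch2 were 271 ± 29.4 and 258 ± 69.8.

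The Jagged ligands are single-pass membrane proteins that bind Notch on adjacent cells. Of the copies of jag1, jag1a (ENSDARG00000030289) was at 94.97, 136 and 95.4 normalised counts with DMSO and at 131, 123 and 70.7 with Galloflavin, with overlapping groups. The ligand gene jag1b (ENSDARG00000013168) had 87.1, 83.3 and 82.4 with DMSO and 76.8, 80.7 and 50.6 with Galloflavin. Every Galloflavin value of jag1b was below every DMSO value, by a small margin in B1 and B2 and by a larger one in B3. Groups that did not overlap, with Galloflavin lower, were found for this 1 of the 10 genes and for 6.47% of all genes tested. The ligand gene jag2b (ENSDARG00000021389) was at 83.7, 88.0 and 82.3 with DMSO and at 83.3, 71.4 and 66.6 with Galloflavin. Its groups overlapped only through B1, where both libraries were nearly equal.

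Lunatic fringe, the product of lfng (ENSDARG00000037879), adds sugars to Notch and so alters which ligands it responds to. Its normalised counts were 74.4, 67.6 and 84.3 with DMSO and 57.9, 86.2 and 80.9 with Galloflavin. The lowest and the highest value were both Galloflavin libraries, so the groups overlapped fully.

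Of the repressors, her6 (ENSDARG00000006514) was at 20.97, 19.2 and 21.4 normalised counts with DMSO and at 16.5, 20.6 and 14.2 with Galloflavin. Galloflavin B1 and B3 lay below all DMSO libraries and Galloflavin B2 lay among them. For her9 (ENSDARG00000056438) the values were 75.1, 57.9 and 72.9 with DMSO and 71.1, 82.2 and 63.8 with Galloflavin, again with overlap.

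No gene of the 10 passed the comparison of Galloflavin with DMSO. It was made with limma on log2(value + 1) over the 15806 genes with a mean of at least 1, with Benjamini-Hochberg adjustment at 0.05, and it called 0% of all genes. The 10 genes all passed that filter, and 0 of them had an unadjusted p under 0.05, against 7.21% of all genes. On the reads recovered from the table, edgeR and DESeq2 also called 0 of the 10, where they called 0% and 0.547% of all genes for which they gave an adjusted p, or 1.17% for DESeq2 with batch as a block. The log2 fold changes of the 10 genes had a median of -0.12, with 9 below 0 and 1 above. Over all genes tested the median was -0.004, with 8045 below 0 and 7761 above. Without Galloflavin B3, 4 of the 10 were below 0.

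The largest fold change of the 10 was that of jag1b, with 84.3 ± 2.50 normalised counts with DMSO and 69.4 ± 16.4 with Galloflavin (SD, n = 3). Its log2 fold change was -0.31 ± 0.17 (SE, limma adjusted p = 0.739), with a 95% interval of -0.72 to 0.10. It was lower in 3 of 3 batches, and without Galloflavin B3 it was -0.10. For her6 the log2 fold change was -0.27 ± 0.15 (limma adjusted p = 0.736) with an interval of -0.61 to 0.08, and it was -0.15 without Galloflavin B3 and -0.40 without Galloflavin B2. That of jag2b was -0.20 ± 0.10 (limma adjusted p = 0.718), with an interval of -0.45 to 0.04 and lower values in 3 of 3 batches, and without Galloflavin B3 it was -0.13. For her9, the only gene above 0, it was 0.08 ± 0.14 with an interval of -0.25 to 0.40.

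The receptors gave log2 fold changes of -0.17 ± 0.29 (notch1a), -0.15 ± 0.20 (notch1b), -0.10 ± 0.20 (notch2) and -0.02 ± 0.16 (notch3), with limma adjusted p-values of 0.907 to 0.994. Without Galloflavin B3 all 4 were above 0, at 0.11, 0.055, 0.12 and 0.16. That fit kept DMSO B3, which held the lowest DMSO value of notch1a, notch1b and notch2, so its batches were unbalanced. The sign of notch1a changed in this 1 of 21 settings, and its pair differences were -0.25 in B1 and 0.10 in B2. The interval of notch1a, -0.85 to 0.51, was the widest of the 10 without batch in the fit. With batch as a block it was -0.47 to 0.12 (SE 0.12 against 0.29; limma adjusted p = 0.665). Without the block the intervals were -0.57 to 0.37 for notch2 and -0.39 to 0.35 for notch3. For jag1a the fold change was -0.04 ± 0.26 and for lfng it was -0.02 ± 0.16.

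**Figure D2:**
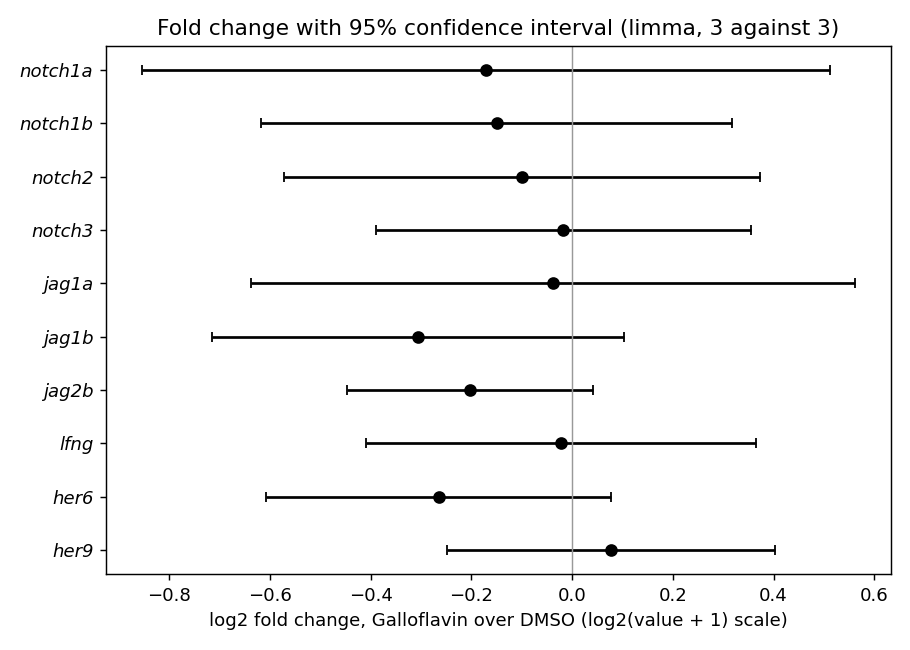
Log2 fold change of Galloflavin over DMSO (horizontal axis, log2(value + 1) scale) for each of the 10 genes, as points with 95% confidence intervals from limma over 3 libraries a group. Every interval includes 0, with jag2b (-0.45 to 0.04) and her6 (-0.61 to 0.08) reaching least far above it.

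The difference between groups was not the same in all batch pairs. Each pair is 1 library a group, so batch and pool cannot be told apart. In B3 all 10 genes were lower in the Galloflavin library than in the DMSO library, with a median log2 difference of -0.38, where 49.9% of all genes tested were lower and their median was 0.0007. The count in B3 was also 10 of 10 under median-of-ratios, upper-quartile and quantile scaling. In B1 and B2, 6 and 5 of the 10 were lower, with medians of -0.04 and -0.02. Galloflavin B3 held the lowest value of 8 of the 10 genes and of 21.5% of all genes. Of the 59 other tested genes of the wider pathway lists described below, 64.4% were lower with Galloflavin in B3. Galloflavin B3 held the lowest value of 39.0% of these 59. These counts are descriptions of 1 pair of libraries and carry no test, and the 10 values of a library are not independent.

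Opposite signs in B1 and B3 were found for notch1b, notch2, notch3 and jag1a. The B1 differences were 0.20 for notch1b, 0.28 for notch2, 0.31 for notch3 and 0.46 for jag1a, and in B3 the same genes stood at -0.51, -0.39, -0.37 and -0.43. For jag1b the differences were -0.18, -0.04 and -0.69 in B1, B2 and B3. The target her6 went the same way in B1 (-0.33) and B3 (-0.56) but not in B2 (0.10), where her9 (0.50) and lfng (0.35) were also higher with Galloflavin. Of the 10 genes, 2 had the same sign in all batches, jag1b and jag2b, against 33.4% of all genes tested.

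**Figure D3:**
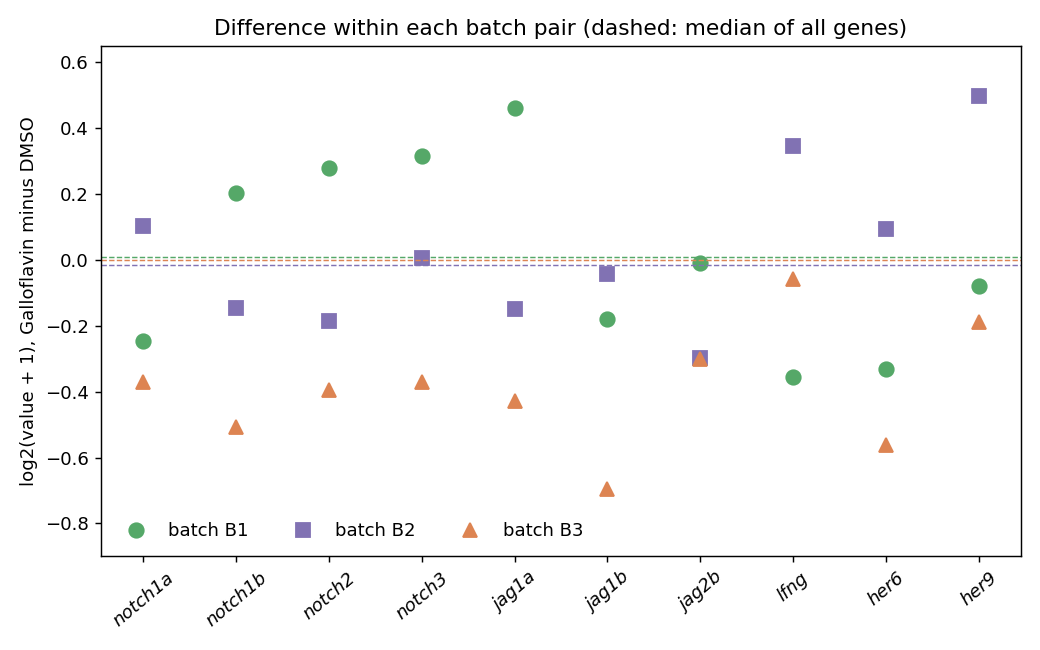
Difference in log2(value + 1) between the Galloflavin and the DMSO library of each batch (vertical axis) for the 10 genes, with 1 point for each batch and dashed lines at the median of all genes in that batch. All 10 triangles (B3) lie below 0, while the circles (B1) run from -0.36 for lfng to 0.46 for jag1a.

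Spread among pools was larger with Galloflavin for 9 of the 10 genes, her9 being the exception. The SD of log2(value + 1) had a median of 0.12 over the 10 genes with DMSO and 0.34 with Galloflavin. Over all genes tested, 60.1% had the larger SD with Galloflavin, with medians of 0.15 and 0.18. For jag1b the SD was 0.04 with DMSO and 0.36 with Galloflavin, and for notch3 it was 0.06 and 0.32. The SD was also taken without Galloflavin B3, the lowest library of 8 of the 10 genes. Leaving out an extreme library lowers an SD by itself, so the source of the spread cannot be read from this. Without Galloflavin B3 the median SD of the 10 genes with Galloflavin was 0.17 over the other 2 libraries, and 0.135 over all genes. The SD of jag1b was 0.0498 and that of notch3 was 0.14, while that of lfng rose from 0.30 to 0.40. The SD over these 2 Galloflavin libraries was larger than that over all 3 DMSO libraries, B3 included, for 8 of the 10 genes, against 46.3% of all genes.

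A test of the 3 batches with treatment as a covariate (limma F test) called 0 of the 10 genes and 0.0316% of all genes. Of the 10, 1 had an unadjusted p under 0.05, against 12.6% of all genes. This was notch1a (limma adjusted p = 0.171), with batch means of 39.8, 51.0 and 27.4 normalised counts. Both of its B3 libraries lay below the other 4. The same held for notch2, where DMSO B3 had 244 and Galloflavin B3 185 (limma adjusted p = 0.422). Both B3 libraries below the other 4 was found for 2 of the 10 genes and for 16.2% of all genes.

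Within a library, the balance of related genes does not depend on scaling between libraries. The share of her9 in the summed counts of her6 and her9 was 78.2%, 75.1% and 77.3% in the DMSO libraries and 81.2%, 80.0% and 81.8% in the Galloflavin libraries. Every Galloflavin share was above every DMSO share, with means of 76.9 ± 1.61% and 81.0 ± 0.952% (SD, n = 3) and a difference of 4.14 percentage points. The two-sided exact permutation p was 0.1, the smallest that 3 libraries against 3 allow (0.3 adjusted over the 3 pairs). For all 3 gene pairs the permutation ignored the batches. For jag1b in the sum of jag1a and jag1b the shares were 47.8%, 37.9% and 46.4% with DMSO and 36.9%, 39.6% and 41.7% with Galloflavin. These overlapped (exact permutation p = 0.3, adjusted 0.45). The share of notch1b in the sum of notch1a and notch1b was 12.9 ± 2.25% with DMSO and 13.0 ± 3.22% with Galloflavin (SD, n = 3; exact permutation p = 1). How reads shared by similar copies were divided in counting is not given in the sources, so the shares themselves are uncertain.

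**Figure D4:**
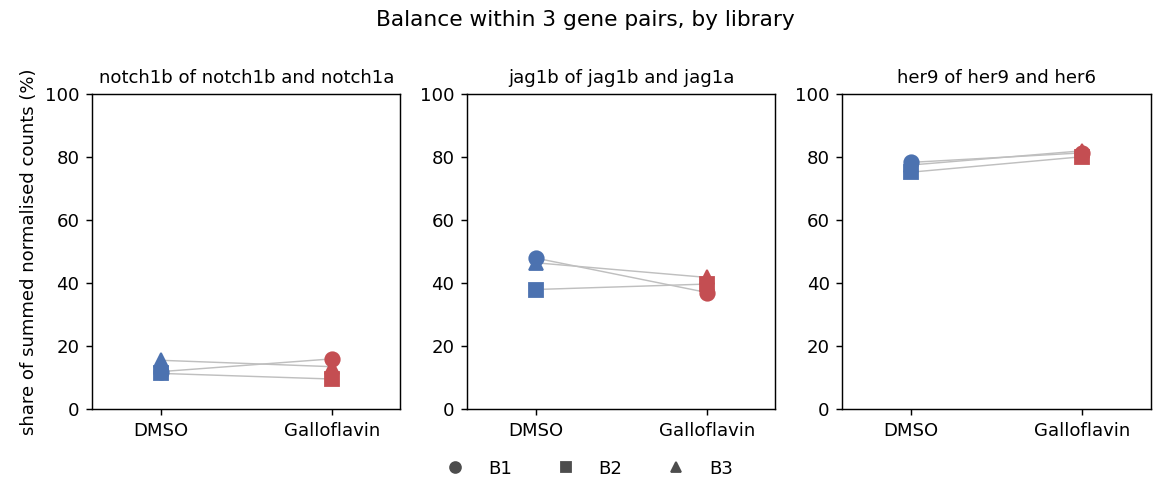
Share of the first gene of each pair in the summed normalised counts of both (vertical axis, percent), by group. Each point is 1 library, its shape gives the batch and lines join the libraries of a batch. The her9 shares with Galloflavin (80.0% to 81.8%) lie above those with DMSO (75.1% to 78.2%), and the other pairs overlap.

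The rest of the pathway was read from lists of 101 genes in 9 roles, of which 75 were in the table and 69, including the 10 genes, were tested. Of the 69, 0 passed in either direction with limma, 4 higher and 1 lower had an unadjusted p under 0.05 (against 4.18% and 3.03% of all genes), and 27 were above and 42 below 0, with a median of -0.05. Neither edgeR nor DESeq2 called any of them. The Delta ligand genes dla and dlb stayed below the filter, dla at 0 in DMSO B3 (a count of 0 allows up to 0.159) and at most 0.372 elsewhere. Among the target genes her2, her7 and hey2 were below it as well.

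The Delta ligand gene dlc had the highest fold change, with 4.39, 4.64 and 6.26 normalised counts with DMSO and 11.6, 5.29 and 10.0 with Galloflavin. The log2 fold change was 0.66 ± 0.27 (limma adjusted p = 0.686), higher in 3 of 3 batches but with groups that overlapped through B2. The gene numb, whose product antagonises Notch, was at 44.6, 36.0 and 45.1 with DMSO and 51.9, 56.0 and 53.7 with Galloflavin (0.36 ± 0.11, limma adjusted p = 0.602). The related gene numbl, with 10 to 58 reads a library, had overlapping groups (-0.15 ± 0.28, limma adjusted p = 0.939). At the other end was tle3a, a Groucho-type corepressor that hairy-related proteins recruit. It was at 75.3, 68.8 and 71.5 with DMSO and 48.6, 52.7 and 61.8 with Galloflavin (-0.40 ± 0.11, limma adjusted p = 0.602). The other copy, tle3b, went the other way (0.15 ± 0.11, limma adjusted p = 0.813), with pair differences of 0.06, 0.04 and 0.34. Neither numb nor tle3a had overlapping groups. The ligand gene jag2a was at 21.4, 23.6 and 12.0 with DMSO and 24.7, 16.6 and 6.62 with Galloflavin (-0.35 ± 0.45), lowest in both B3 libraries. Its pair differences were 0.19 in B1, -0.48 in B2 and -0.77 in B3. Without Galloflavin B3, but with the low DMSO B3 kept, its fold change was 0.14, the only change of sign in 21 settings.

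Further genes are named because their values stood out. The feedback inhibitor gene nrarpa, itself switched on by Notch, was at 116, 100.5 and 112 normalised counts with DMSO and 137, 128 and 131 with Galloflavin (0.27 ± 0.09, limma adjusted p = 0.627). Its other copy, nrarpb, had overlapping groups (0.14 ± 0.21, limma adjusted p = 0.921) and was lower with Galloflavin in B2. The gene adam10a encodes a protease of the first cleavage and was at 280, 267 and 258 with DMSO and 330, 334 and 290 with Galloflavin (0.24 ± 0.09, limma adjusted p = 0.673). For nrarpa and adam10a, every Galloflavin library was above every DMSO library. The other copy, adam10b, went the other way (-0.12 ± 0.16, limma adjusted p = 0.902), with pair differences of -0.03, -0.24 and -0.08. The related protease genes adam17a and adam17b were at 0.0004 ± 0.11 and -0.10 ± 0.52. Groups that did not overlap were found with Galloflavin higher in 4 of the 69 genes (numb, nrarpa, adam10a and the gamma-secretase gene psen2) and lower in 6 (jag1b, tle3a, hdac1, hdac3, poglut1 and dnm2b), against 6.97% and 6.47% of all genes tested. That is 10 of 69 in either direction beside 13.4% of all genes.

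By role, the 7 tested genes of the nuclear complex, which include rbpja and maml1, had a median log2 fold change of -0.12 with 5 below 0. The corepressors had a median of -0.10 with 10 of 11 below 0, and the receptor proteases 0.04 with 7 of 10 above 0. Over all 15806 genes tested, 8045 were below and 7761 above 0. Of the 11 corepressors, 5, 9 and 9 were below 0 in the B1, B2 and B3 pairs. The genes listed as inhibitors of the pathway had a median of 0.23 with 6 of 9 above 0. That median is the value of dlk2, with 25 to 57 reads a library and pair differences of 0.70, 0.42 and -0.42. Of the 27 hairy and hey targets listed, 9 were found in the table by symbol, no her4 gene among them. The 6 tested had a median of 0.05, with 4 above 0, and do not stand for the whole list. They were listed from general knowledge, and whether each of them, hes6 and her9 included, responds to Notch in the fin was not tested. The medians of these targets were -0.17 in the B1 pair, 0.46 in B2 and -0.08 in B3. The median was thus above 0 in B2 alone. Single targets differed, with 4, 1 and 3 of the 6 below 0 in B1, B2 and B3. The target hey1 was above 0 in every batch. For the nuclear complex the 3 pairs gave 0.17, -0.12 and -0.32, and for the corepressors 0.008, -0.18 and -0.15. The receptor proteases had pair medians of 0.16, 0.04 and 0.04, and the inhibitors 0.24, 0.17 and 0.0006.

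**Figure D5:**
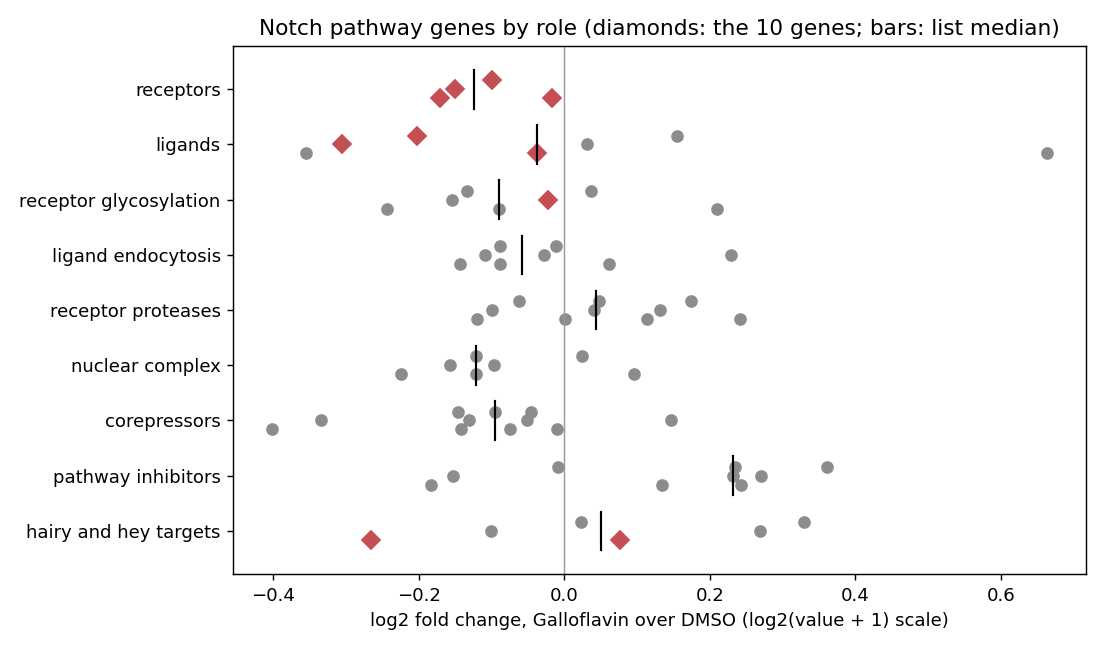
Log2 fold change of Galloflavin over DMSO (horizontal axis, log2(value + 1) scale) for the 69 tested pathway genes, by role. Each point is 1 gene, diamonds are the 10 genes described first and the black bars are list medians. The ligand gene dlc lies farthest to the right at 0.66, and all 4 receptors lie below 0 with a median of -0.12.

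The genes most alike in profile were sought for the 3 of the 10 genes with the widest range over the libraries, by the root mean square difference of centred log2(value + 1) over the 6 libraries. For notch1a, which ranged over 1.12 on the log2 scale, the closest was col12a1a, a collagen gene (difference 0.0395), followed by bach1a (0.0746) and APCDD1 (0.0815). For col12a1a the normalised counts were 1029, 1218 and 767 with DMSO and 927, 1269 and 622 with Galloflavin, the same order of the 6 libraries as in notch1a. Closest to jag1a were vclb, which encodes a vinculin of cell adhesions (0.0718), arnt (0.0749) and fndc3ba (0.0795). Closest to notch2 were ralgapb (0.0265), gbf1 (0.0305) and stxbp5b (0.0498). Likeness over 6 libraries of shared batches is a description.

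In tissue pools, fewer cells of a type and less RNA per cell cannot be told apart, and cell type markers were therefore read beside these genes. The summed level of 14 blastema and fin mesenchyme markers was 2708 to 3403 normalised counts with DMSO and 2307 to 3479 with Galloflavin, lowest in Galloflavin B3. The collagen genes col5a1 and col12a1a made up 75.2% of that sum. The other 12 markers summed to 635 to 946 with DMSO and 620 to 796 with Galloflavin, highest in both B3 libraries. None of the 14 was at 0 in any library, and their median log2 fold change was -0.10 with 4 above 0. Proliferation genes summed to 954 to 1018 with DMSO and 740 to 885 with Galloflavin, with 0 of 10 genes above 0. Of these, 0 were called, where limma called 0% of all genes. Groups that did not overlap, with Galloflavin lower, were found for mki67, mcm2, mcm5, ccna2 and plk1, against 6.47% of all genes tested. The others overlapped. The 6 endothelial markers in the table summed to 75.8 to 78.6 with DMSO and 81.7 to 83.5 with Galloflavin, with none at 0, and without kdrl, 50.7% of the sum, the groups overlapped (36.1 to 41.8 and 35.3 to 44.5). Basal epidermis markers, 10 of 10 in the table, summed to 55122 to 74047 and 56871 to 72215, of which krt5, a keratin gene, made up 94.2%. The other 9 summed to 3274 to 3352 with DMSO and 3631 to 4719 with Galloflavin, every Galloflavin library being higher. Over the 10 epidermal markers the median log2 fold change was 0.20 with 8 above 0, such as cldn1 (0.46), lamb3 (0.66, groups overlapping) and cdh1 (0.21). The markers krt5 (-0.11) and krtt1c19e (-0.52) were below 0, and 0 of the 10 were called. Sums without the most abundant genes, like the spread without Galloflavin B3, were chosen after seeing the data. The part of these cell types in the values of the Notch genes was not tested.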

How the data were processed

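Poly(A) RNA was sequenced with a stranded kit, per the labels' protocols. The submitters' processing notes name STAR 2.7.10a and the GRCz11 assembly. How reads were counted, annotated and normalised is not given in the sources used here. Deposited by the authors was 1 signal value for each gene and library, a read count divided by a factor for that library. Dividing each column by its smallest nonzero value gave whole numbers (100% within 0.01 of a read), and these reads were used for edgeR 4.0.16 and DESeq2 1.42.0. Column totals ran from 938945 to 1093130. Strand use in counting was not stated, so overlapping genes and similar copies are uncertain.

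Genes with a mean of at least 1 were put on the log2(value + 1) scale and tested with limma 3.58.1 under R 4.3.3 (mean trend, two-sided, Benjamini-Hochberg over all genes at 0.05), which was checked on simulated data. This scale understates changes of low genes. Gene pairs were tested by exact permutation over the 20 assignments of the libraries.

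The 10 genes and the lists were chosen with earlier results of these data known. The rule for naming other genes took those that passed and, with a mean of at least 5, the 2 highest and 2 lowest fold changes of the lists. Symbols not found in the table were not analysed here, and 1485 identifiers without a symbol took one from a table of gene names.

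Libraries with the same replicate mark in their labels (B1, B2 or B3) were taken as pairs of a batch, which is an assumption. Their deviations from the mean of the group correlated at 0.10 (B1), 0.08 (B2) and 0.49 (B3) within pairs, and across batches DMSO B2 with Galloflavin B1 (0.38) and DMSO B1 with Galloflavin B2 (0.24) correlated more than the pairs of B1 and B2 did. The pairing thus comes from the labels and not from these values. No library repeated another (chi-square per degree of freedom 11.1 to 58.0).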

Additional observations from a re-analysis of the deposited data

How the results depend on the processing

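With batch as a replicate block, 0 genes passed limma, as without it (1582 against 1139 at an unadjusted p under 0.05). DESeq2 called 83 genes of the table without the block and 146 with it, none of the 10 in either fit. With the block, limma and edgeR also called 0 of the 10. An unadjusted limma p under 0.05 was reached by 1 of the 10 with quantile normalization and without Galloflavin B1, Galloflavin B2 or batch B2. In the other settings 0 of the 10 reached it. The share of all genes in those fits is not given here. The 10 genes kept their sign and stayed uncalled in 190 of 210 recomputations (21 settings each), with a lowest adjusted p of 0.525. Of the 20 sign changes, those over all libraries were notch3 with edgeR (0.0016) and DESeq2 (0.0045). The others came from leaving out libraries or batches, which gave -0.45 to 0.11 for notch1a, -0.33 to 0.055 for notch1b, -0.29 to 0.12 for notch2, -0.18 to 0.16 for notch3, -0.29 to 0.24 for jag1a, -0.21 to 0.15 for lfng, -0.13 to 0.21 for her9 and, outside the 10, -0.74 to 0.14 for jag2a. Without a change of sign, jag1b ranged from -0.44 to -0.10, jag2b from -0.30 to -0.13 and her6 from -0.45 to -0.12. Left-out libraries or batches gave 0 to 1 called genes over the table, 4 to 10 of the 10 genes below 0 (4 without Galloflavin B3, 5 without both B3 libraries), share differences of -1.90 to 1.79 points for notch1b, -7.78 to -1.46 for jag1b and 3.24 to 4.796 for her9. Over other batches, 6 (B1) and 5 (B2) of the 10 were below 0, against 10 in B3; counts and pair settings were added after seeing the data. The batch test called 5 genes, and 1 with a pseudocount of 5, 8 with no filter, 0 with a minimum mean of 5, 1 with quantile normalization, 0 with edgeR and 0 without the treatment term; none was among the 10. The causes were not tested.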
